A study of Rattus norvegicus with 12 samples.

Results

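Whole urinary bladder taken 7 days after complete transection of the cord was set against bladder of normal controls. The comparison uses the 3 libraries titled as day 7 and the 3 titled as control, 6 of the 12 in the series, and covers all genes. All rats were female and of the Wistar strain, an outbred laboratory stock, aged 10 to 12 weeks, and the labels name no transgene or mutant allele. In the injured rats a scalpel cut at thoracic segment 10 severed the cord completely while the dura was left intact. The controls are described only as normal, with no sham operation stated, so that the effects of surgery and of cord transection cannot be told apart here. The remaining 6 libraries, 3 at day 14 and 3 at day 28, served to estimate the spread and to show whether day 7 differed from later days. The design text speaks of 20 rats, and nothing in the labels says that each library came from a rat of its own. P-values therefore measure only the spread between these samples, which may be technical.

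The bladder wall consists of a urothelium, whose superficial cells carry plaques of uroplakin proteins, a fibroblast-rich lamina propria, and the detrusor, a coat of smooth muscle. Parasympathetic nerves from the sacral cord contract the detrusor under control of a brainstem centre, and a complete cut above the sacral cord severs that control. The bladder is then known to fill without emptying at first and to contract by spinal reflex later, and its wall is known to grow and to change its matrix. Because whole bladder was sequenced, fewer cells of a type and less RNA per cell cannot be told apart in any of the values below.

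Each control library held 27044344 to 28412801 counts and each day-7 library 28765686 to 30747936. Levels are given as CPM, counts scaled to a common library size after TMM normalisation, and levels of different genes are not compared with each other. Differences are log2 fold changes of day 7 against control with an approximate standard error, and calls rest on edgeR's quasi-likelihood test with Benjamini-Hochberg adjustment at a threshold of 0.05. Every adjusted p in the text is from that test unless another tool is named. Mitochondrial genes took 6.16% to 7.07% of counts in the controls and 4.29% to 4.86% at day 7. Haemoglobin genes took 2.89% of counts in day-7 replicate 3, and 0.0637% to 0.370% in the other 5 libraries. The labelled tissue carried its markers in all 6 libraries. The uroplakin Upk2 measured 925, 1050.4 and 963 CPM in the controls and 566, 707 and 841 CPM at day 7, and the smooth muscle myosin Myh11 11442, 9355 and 9454 CPM in the controls and 8875, 4635 and 4633 CPM at day 7. Neither passed the test (adjusted p = 0.0734 and 0.103). The fibroblast genes Pdgfra (0.31 ± 0.17, adjusted p = 0.209) and Lum (−0.08 ± 0.19, adjusted p = 0.780) were present at day 7 and did not pass either. Genes were also read in 54 lists by role, holding 632 genes, of which 595 had counts enough for the test and 37 did not. Of the 595, 243 were called higher and 68 lower, with a median of 0.70.

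Of 17687 genes tested, 4622 (26.1%) passed at day 7. The higher ones numbered 2757 (15.6%) and the lower ones 1865 (10.5%), with a change of at least 2-fold in 2346. The counts of called members in each list below stand against these shares. The median difference over all tested genes was −0.01. Genes called higher held 12.6% of the normalised counts in the controls and 26.4% at day 7, while those called lower went from 18.3% to 10.5%. The 3 day-7 libraries lay entirely above or below the 3 controls for 8017 genes (45.3%). The count of calls dropped to 3061 without day-7 replicate 2, to 3077 without control replicate 1 and to 3081 without control replicate 2, and was 5516 by DESeq2 and 4470 by limma voom.

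**Figure D1:**
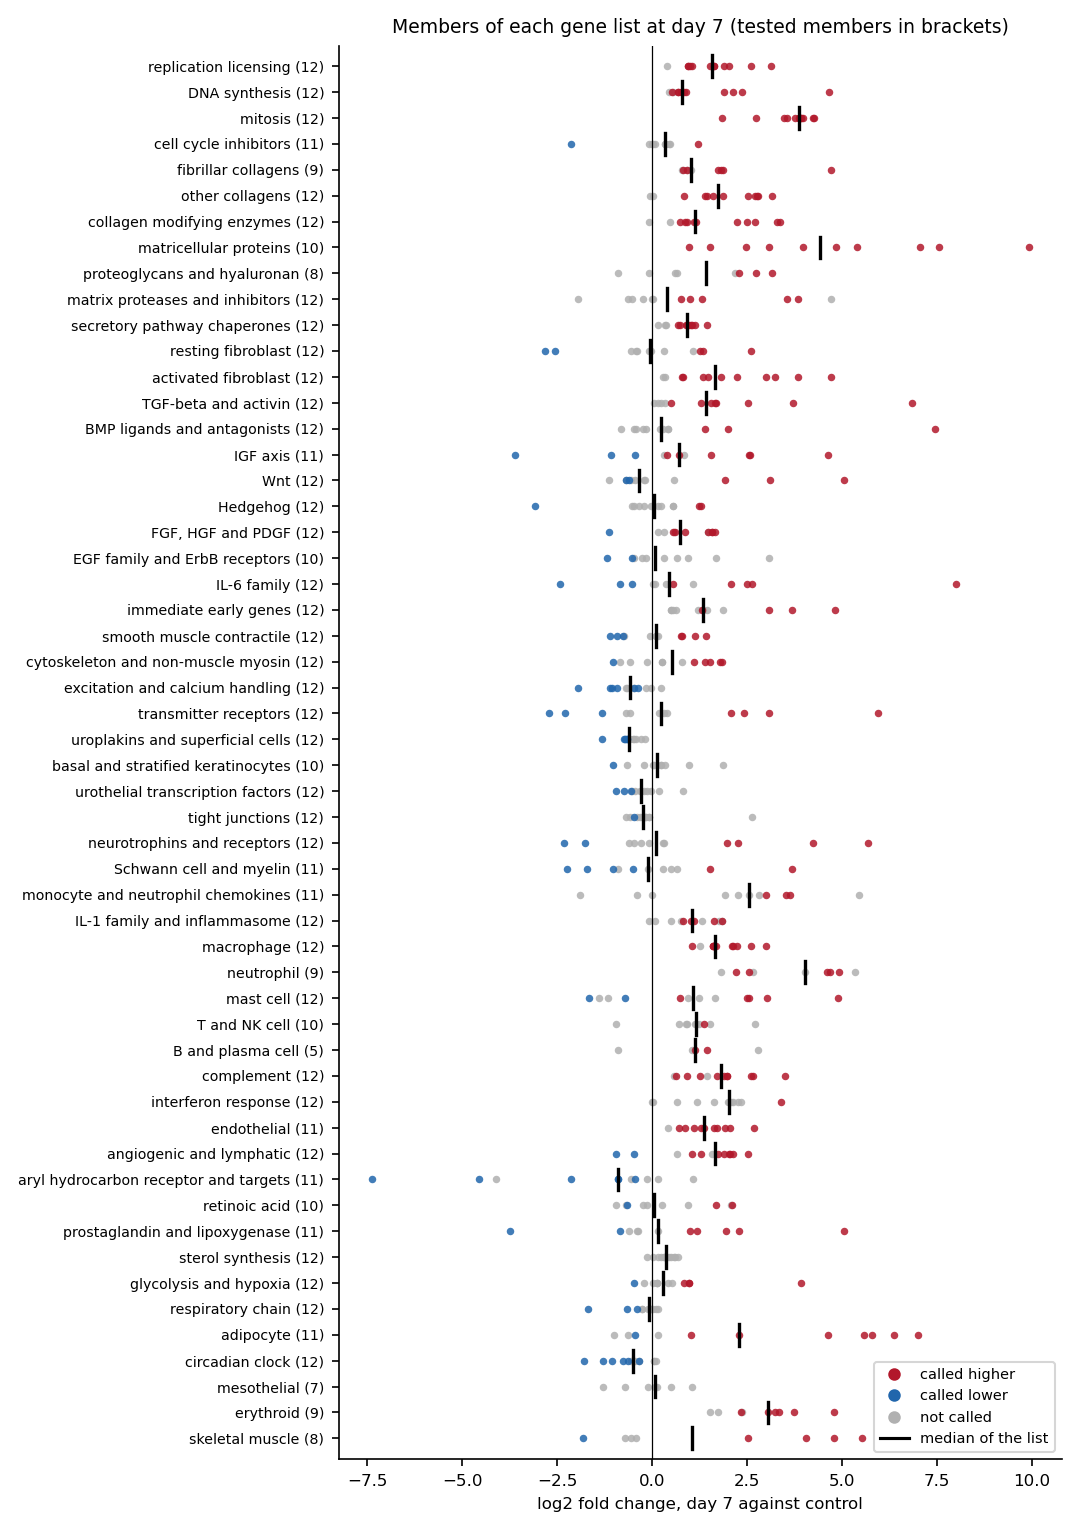
Log2 fold change of day 7 against control (x axis) for the tested members of 54 gene lists (y axis, tested members in brackets); red points were called higher, blue points lower, grey points were not called, and the black line is the median of the list. All 12 mitosis genes lie to the right at a median of 3.87, the matricellular proteins at 4.40, and the uroplakins and superficial cell genes to the left at −0.61.

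The genes with the widest changes at day 7 included matrix proteins, hormones and enzymes. The rule for these names took the 10 largest rises and 10 largest falls among called genes with a mean of at least 5 CPM and no overlap between the groups. Among the rises, Trh, the precursor of thyrotropin-releasing hormone, measured 0.0348, 0 and 0 CPM in the controls and 2.53, 13.7 and 14.5 CPM at day 7. Its controls held 1 count in all against 864 at day 7, a ratio of 869 (95% interval 156 to 34368) that covers counting error only. Adamts16, a secreted metalloprotease, likewise held 1 count against 838. Both genes were close to absent in the controls and present in each day-7 library.

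Ptx3, a soluble pattern-recognition protein of the innate immune system, measured 0.278, 0.328 and 0.286 CPM in the controls and 7.55, 45.4 and 55.7 CPM at day 7 (6.91 ± 1.46, adjusted p = 0.00544). Ptx3 in day-7 replicate 1 stood well below the other day-7 libraries, and by limma voom its call was lost (adjusted p up to 0.0914 across every alternative). Tnn (9.92 ± 1.00), Spp1 (7.55 ± 0.88), Grem1 (7.44 ± 0.66), Cilp (7.06 ± 1.00) and Adipoq (7.00 ± 1.49) were also among the 10 rises and return with their groups.

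Of the falls, Smyd1, a methyltransferase known from heart and skeletal muscle, measured 4.73, 12.1 and 14.1 CPM in the controls and 0.916, 0.278 and 0.651 CPM at day 7 (−4.06 ± 0.63, adjusted p = 0.000970). Another gene that overlaps Smyd1 holds more counts than it, and no source used here says whether reads were assigned by strand, so Smyd1 is uncertain. Ngb, neuroglobin, a globin of nerve cells, measured 8.52, 12.5 and 13.1 CPM in the controls and 1.28, 1.32 and 0.253 CPM at day 7 (−3.57 ± 0.62, adjusted p = 0.00190). Ces1f, a carboxylesterase, measured 29.0, 28.0 and 33.7 CPM in the controls and 3.66, 3.30 and 1.37 CPM at day 7 (−3.44 ± 0.43, adjusted p = 0.000336). Each of these genes was lower in all 3 day-7 libraries than in any control. Cyp1a1 (−7.38 ± 1.16), Aldh3a1 (−4.55 ± 0.42), Mamdc2 (−4.44 ± 0.62), Myoc (−3.90 ± 0.57), Pla2g2a (−3.75 ± 0.52), Car14 (−3.74 ± 0.45) and Igfbp3 (−3.61 ± 0.29) complete the 10 falls.

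Genes of cell division rose together at day 7: 12 of 12 mitosis genes, 11 of 12 replication licensing genes and 10 of 12 DNA synthesis genes were called higher and none lower, against 15.6% of all genes tested. The medians were 3.87, 1.57 and 0.79, beside −0.01 over all genes. Licensing proteins load the replicative helicase on DNA before the S phase, synthesis enzymes make nucleotides and copy the strands, and the mitotic kinases and motors act once replication is done. Cdk1, the kinase that drives entry into mitosis (chromosome 20, 20576341 to 20591510 on rn6), measured 5.25, 3.42 and 2.18 CPM in the controls and 40.6, 53.3 and 52.1 CPM at day 7. Its difference was 3.75 ± 0.38, adjusted p = 0.000129, and no library of one group reached the range of the other.

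Ccnb1, the cyclin that activates Cdk1, measured 2.96, 0.874 and 0.714 CPM in the controls and 26.8, 31.4 and 29.6 CPM at day 7 (4.26 ± 0.59, adjusted p = 0.000539). Bub1, a checkpoint kinase of the kinetochore, measured 6.51, 5.32 and 4.71 CPM in the controls and 31.3, 43.2 and 36.2 CPM at day 7 (2.74 ± 0.27, adjusted p = 0.000125). Top2a, the topoisomerase that untangles sister chromatids, measured 11.7, 4.04 and 3.32 CPM in the controls and 81.9, 107 and 101 CPM at day 7 (3.93 ± 0.52, adjusted p = 0.000439). For these 3 genes the lowest day-7 library stood several times above the highest control. The other 8 mitosis genes, Kif20a, Plk1, Ttk, Ccnb2, Bub1b, Kif11, Aurkb and Aurka, rose by 1.85 to 4.24. Kif20a and Aurka share their position with an overlapping gene that holds more counts and are uncertain, and the list had 12 calls whichever library was left out.

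Promoters of the mitosis genes are shown because the members moved together and because genes of late cell division are known for a pair of short promoter elements, the cell cycle gene homology region (CHR, TTTGAA) and the CCAAT box. The windows, from RefSeq on GRCr8, reach from 250 bases before to 50 bases after each annotated start, and both strands were searched. Of all 27457 windows, 18.1% hold the CHR, 37.7% hold the CCAAT box and 7.25% hold both. Of the 11 mitosis genes with a window, 6 hold the CHR, 8 the CCAAT box and 5 (Cdk1, Ttk, Plk1, Top2a and Ccnb2) hold both. Of 9 licensing genes, 1 holds the CHR and 7 the CCAAT box, and of 10 DNA synthesis genes 0 and 5, with no gene holding both. The 3 of the 5 with the smallest adjusted p are printed 5′ to 3′ along the gene, with either motif in capitals in either orientation. No matches overlap in them, and a match is a description of the letters, not a bound site.
Cdk1 (chr20:19265043-19265342, plus strand): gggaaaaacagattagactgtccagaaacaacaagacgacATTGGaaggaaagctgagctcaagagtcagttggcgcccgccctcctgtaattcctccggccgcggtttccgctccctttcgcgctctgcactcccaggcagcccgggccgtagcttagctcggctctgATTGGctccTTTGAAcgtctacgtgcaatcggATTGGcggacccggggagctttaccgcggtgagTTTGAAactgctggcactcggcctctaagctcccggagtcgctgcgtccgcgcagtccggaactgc
Ttk (chr8:93634389-93634688, plus strand): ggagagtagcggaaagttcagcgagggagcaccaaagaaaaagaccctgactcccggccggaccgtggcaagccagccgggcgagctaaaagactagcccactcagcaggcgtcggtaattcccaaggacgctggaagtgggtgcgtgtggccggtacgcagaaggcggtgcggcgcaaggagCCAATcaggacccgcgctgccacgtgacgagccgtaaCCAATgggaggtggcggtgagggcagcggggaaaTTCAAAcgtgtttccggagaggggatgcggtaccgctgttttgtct
Plk1 (chr1:186147408-186147707, plus strand): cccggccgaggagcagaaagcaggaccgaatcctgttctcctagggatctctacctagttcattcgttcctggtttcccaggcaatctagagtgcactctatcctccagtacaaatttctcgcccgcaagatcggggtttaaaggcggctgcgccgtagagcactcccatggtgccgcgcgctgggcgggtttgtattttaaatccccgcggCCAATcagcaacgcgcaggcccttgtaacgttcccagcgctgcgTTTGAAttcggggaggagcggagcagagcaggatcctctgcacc

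Among licensing genes, Mcm5, a subunit of the helicase ring, measured 5.36, 10.4 and 6.46 CPM in the controls and 14.3, 33.0 and 43.3 CPM at day 7 (2.03 ± 0.45, adjusted p = 0.00731). Mcm6, another subunit, measured 9.91, 15.7 and 12.6 CPM in the controls and 24.2, 43.4 and 50.0 CPM at day 7 (1.62 ± 0.27, adjusted p = 0.00154). Orc1, which marks replication origins, measured 0.244, 0.838 and 0.607 CPM in the controls and 2.24, 5.56 and 7.06 CPM at day 7 (3.13 ± 0.55, adjusted p = 0.00193). Day-7 replicate 1 held the lowest day-7 level of all 12 licensing genes and replicate 3 the highest. Cdc45, Mcm3 and Gins2 rose by 1.63 to 2.60, Gins2 with more counts in an overlapping gene, and Mcm7 did not pass (0.40 ± 0.22, adjusted p = 0.199). Cdt1, Cdc6, Gmnn, Mcm4 and Mcm2 (0.95 to 1.52) lost their calls without day-7 replicate 3, which left 6 of the 12 called. Mcm2 (0.95 ± 0.23, adjusted p = 0.0103) was lost without day-7 replicate 3 (adjusted p 0.0507, against 0.000708 to 0.0507 across every alternative).

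Rrm2, the subunit of ribonucleotide reductase that limits the supply of DNA precursors, measured 2.92, 2.15 and 0.928 CPM in the controls and 46.8, 51.0 and 54.2 CPM at day 7 (4.66 ± 0.50, adjusted p = 0.000170). Pcna, the clamp that holds polymerases on DNA, measured 46.6, 59.7 and 55.7 CPM in the controls and 74.7, 99.0 and 116 CPM at day 7 (0.84 ± 0.17, adjusted p = 0.00466). Tk1, Pole and the overlapped Fen1 rose by 1.89 to 2.36 and Rrm1 and Rfc4 by 0.69 to 0.75, while Lig1 (0.54 ± 0.29, adjusted p = 0.184) and Prim1 (0.45 ± 0.29, adjusted p = 0.278) did not pass. Inhibitors of the cell cycle showed no such shift, with 1 of 11 called higher, 1 lower and a median of 0.33. Cdkn1c, the imprinted inhibitor p57, measured 68.0, 26.1 and 34.4 CPM in the controls and 12.7, 8.93 and 7.45 CPM at day 7 (−2.14 ± 0.39, adjusted p = 0.00260). Cdkn1a, the p53 target p21, measured 75.6, 80.3 and 67.8 CPM in the controls and 76.1, 68.2 and 81.0 CPM at day 7 (0.01 ± 0.17, adjusted p = 0.974). Cdkn1c was thus lower in every day-7 library while Cdkn1a overlapped between the groups. Cdkn2c, called higher, was lost without control replicate 3 (adjusted p 0.0599, against 0.000936 to 0.0599 across every alternative).

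Collagen genes and the genes of their enzymes rose in large part at day 7. Of 9 fibrillar collagen genes tested 6 were called higher, of 12 other collagen genes 10, and of 12 modifying enzymes 10, with none lower and medians of 1.02, 1.73 and 1.12. Fibrillar collagens bear load, collagen IV and XVIII build basement membranes, and collagen VI and XII tie fibrils to cells. Col5a1, a regulator of fibril diameter, measured 457, 427 and 470.4 CPM in the controls and 1293, 1630.2 and 1813 CPM at day 7 (1.81 ± 0.28, adjusted p = 0.000925). Col11a1, its relative from cartilage, measured 5.08, 8.16 and 3.57 CPM in the controls and 155, 119 and 166 CPM at day 7 (4.71 ± 0.80, adjusted p = 0.00173). The call of the major chains differed between tools. Col1a1 measured 12340.0, 8245 and 10216 CPM in the controls and 15541, 20295 and 21799 CPM at day 7 (0.90 ± 0.31, adjusted p = 0.0509), and Col3a1 measured 10239, 8478 and 9775 CPM in the controls and 14862, 18765 and 15411 CPM at day 7 (0.78 ± 0.27, adjusted p = 0.0516). Both genes had day-7 libraries above every control, yet they did not pass edgeR's test, while DESeq2 called all 9 genes of the list, these included, and limma voom 6. Col1a2 (0.82 ± 0.22) was called with all libraries but lost without day-7 replicate 3 or control replicate 1 or 2 (adjusted p between 0.0544 and 0.0753, against 0.00284 to 0.0753 across every alternative). The Col1a2 entry held only 17430 counts over all 12 libraries, and whether it holds all reads of the gene was not tested.

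Col4a1, a chain of the basement membrane network, measured 395, 317 and 309.6 CPM in the controls and 2155, 2049.8 and 2433 CPM at day 7 (2.70 ± 0.25, adjusted p = 8.54e-05). Col18a1, the precursor of endostatin, measured 35.7, 36.9 and 30.6 CPM in the controls and 227, 269 and 212 CPM at day 7 (2.78 ± 0.23, adjusted p = 5.69e-05). Col12a1, which coats fibrils under tension, measured 286, 496 and 384 CPM in the controls and 1924, 2471 and 3495 CPM at day 7 (2.76 ± 0.35, adjusted p = 0.000385). In each the lowest day-7 library was more than 3 times the highest control. Col8a1 rose by 3.14, Col6a1, Col6a2 and Col6a3 by 1.38 to 1.86, and Col15a1 by 0.84. Col4a2 rose by 2.52, but it overlaps Col4a1 and is uncertain. Col14a1 (0.01 ± 0.27, adjusted p = 0.987) and the hemidesmosome collagen Col17a1 (−0.05 ± 0.15, adjusted p = 0.834) did not pass.

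Lox, the lysyl oxidase that starts cross-linking of collagen and elastin, measured 90.1, 78.4 and 89.7 CPM in the controls and 458, 1045 and 1021 CPM at day 7 (3.29 ± 0.51, adjusted p = 0.000968). Plod2, which hydroxylates collagen lysines for stable cross-links, measured 34.1, 51.6 and 44.9 CPM in the controls and 142, 288 and 308 CPM at day 7 (2.50 ± 0.37, adjusted p = 0.000810). P4ha3, a collagen prolyl hydroxylase, measured 4.45, 7.36 and 5.82 CPM in the controls and 42.7, 73.1 and 65.0 CPM at day 7 (3.36 ± 0.58, adjusted p = 0.00183). All 3 enzymes separated the groups fully. Loxl1 and Loxl2 rose by 2.23 to 2.70, and Plod1, Plod3 and the procollagen protease Bmp1 by 0.72 to 1.14. P4ha2 (−0.09 ± 0.25, adjusted p = 0.828) and Loxl3 (0.46 ± 0.22, adjusted p = 0.148) did not pass. Eln, the precursor of elastin (chromosome 12, 24978478 to 25021864 on rn6), measured 90.5, 166 and 149.9 CPM in the controls and 2493, 2574 and 2445 CPM at day 7 (4.21 ± 0.60, adjusted p = 0.000627), and its day-7 libraries lay close together and far above the controls.

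**Figure D2:**
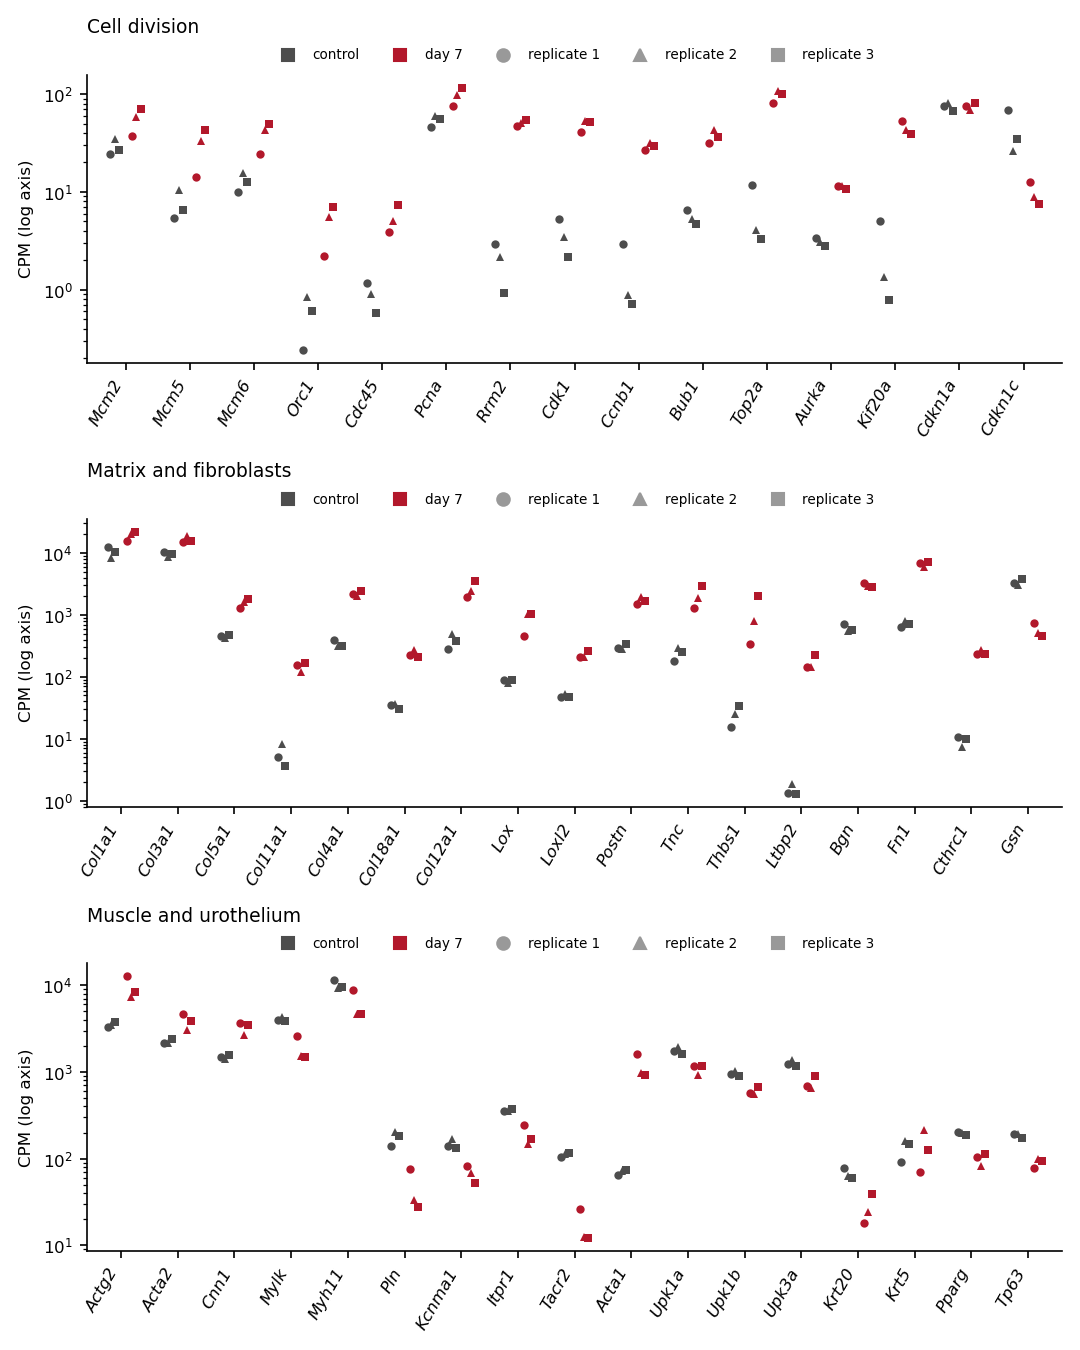
Level in CPM on a log axis (y axis) of 15 cell division genes (top), 17 matrix and fibroblast genes (middle) and 17 muscle and urothelial genes (bottom) in the 3 control libraries (grey) and the 3 day-7 libraries (red), with 1 symbol per replicate. Cdk1 to Kif20a, Col5a1 to Cthrc1 and Acta1 lie above the controls without overlap, Gsn, Tacr2 and Pln lie below them, and Krt5 and Cdkn1a lie level with them.

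Matricellular proteins, which sit in the matrix and signal to cells without bearing load, were called higher in 10 of 10 tested members, with a median of 4.40. Postn, periostin, a protein of loaded and healing connective tissue, measured 293, 285 and 338 CPM in the controls and 1492, 1943 and 1660.1 CPM at day 7 (2.47 ± 0.27, adjusted p = 0.000200). Thbs1, thrombospondin 1, known to activate latent TGF-beta, measured 15.2, 25.5 and 33.8 CPM in the controls and 334, 788 and 2003 CPM at day 7 (5.39 ± 0.76, adjusted p = 0.000580). Tnc, tenascin C, measured 182, 296 and 255 CPM in the controls and 1311, 1896 and 2912 CPM at day 7 (3.06 ± 0.42, adjusted p = 0.000537). Ctgf rose by 4.85, Thbs4 by 3.96 and Thbs2 by 1.53. The call of Sparc, a collagen-binding glycoprotein (0.98 ± 0.28), was lost without day-7 replicate 2 or control replicate 2 or 3 (adjusted p between 0.0647 and 0.0951, against 0.00245 to 0.0951 across every alternative). By limma voom Tnn was not called, with adjusted p up to 0.0616 across every alternative.

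Other matrix genes changed less uniformly. Of 8 proteoglycan and hyaluronan genes tested, 3 were called higher. Vcan, versican, a space-filling proteoglycan, measured 41.1, 101 and 88.1 CPM in the controls and 277, 913 and 874 CPM at day 7 (3.16 ± 0.58, adjusted p = 0.00260). Bgn, biglycan, rose from 611 ± 84.4 to 2990.3 ± 245 CPM (2.29 ± 0.26, mean ± SD, n = 3). Dcn, decorin, measured 1983, 2179 and 2631 CPM in the controls and 1885, 872 and 879 CPM at day 7 (−0.90 ± 0.32, adjusted p = 0.0582), and it did not pass. Has2, a hyaluronan synthase, was the third call and was lost without day-7 replicate 3 or control replicate 1 or 3 (adjusted p between 0.0561 and 0.0773, against 0.00205 to 0.0773 across every alternative). The list had 5 calls without day-7 replicate 1 and 6 by DESeq2.

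Of 12 matrix proteases and inhibitors, 5 were called higher and none lower. Timp1, an inhibitor of metalloproteases, measured 37.7, 53.6 and 40.3 CPM in the controls and 240.4, 759.9 and 867 CPM at day 7 (3.83 ± 0.58, adjusted p = 0.000855). Mmp2, the gelatinase of stromal cells, measured 313, 304 and 338 CPM in the controls and 951, 782 and 635 CPM at day 7 (1.31 ± 0.26, adjusted p = 0.00358), and Mmp14, which activates it, rose by 1.00. Adamts4, a protease of versican, rose by 3.55 and is uncertain because of an overlapping gene. Mmp9, the gelatinase of myeloid cells, measured 0, 0.146 and 0.0714 CPM in the controls and 0.513, 2.95 and 2.46 CPM at day 7 (4.71 ± 1.65, adjusted p = 0.0549) and did not pass. Among secretory pathway chaperones, which fold and modify proteins in the endoplasmic reticulum, 9 of 12 were called higher at a median of 0.91. Sdf2l1, Sec61b, Pdia6, Pdia4 and Pdia3 rose by 0.68 to 1.45. The number called was 5 without day-7 replicate 2, without day-7 replicate 3 or without control replicate 1. Hspa5, the chaperone BiP (1.13 ± 0.31), was lost without day-7 replicate 2 or 3 or control replicate 1 or 3 (adjusted p between 0.0674 and 0.0856, against 0.00203 to 0.0856 across every alternative).

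Markers of activated fibroblasts were called higher in 10 of 12 cases, with a median of 1.65. Fn1, fibronectin, measured 631, 803 and 718 CPM in the controls and 6977, 5917 and 7257 CPM at day 7 (3.23 ± 0.31, adjusted p = 0.000103), the largest difference of mean CPM among the called genes without overlap. Cthrc1, a secreted protein of collagen-producing fibroblasts, measured 10.7, 7.36 and 10.0 CPM in the controls and 233, 269 and 234 CPM at day 7 (4.71 ± 0.49, adjusted p = 0.000138). Fap, a membrane protease of activated fibroblasts, measured 5.46, 3.68 and 6.07 CPM in the controls and 19.7, 28.7 and 22.6 CPM at day 7 (2.22 ± 0.34, adjusted p = 0.000972). Adam12, Lrrc15 and Prrx1 rose by 1.82 to 3.83, and Runx2 by 1.47 with a more abundant overlapping gene. Markers of resting fibroblasts did not move one way: of 12 members 3 were called higher and 2 lower, at a median of −0.06. Gsn, gelsolin, which severs actin filaments, measured 3304, 3061 and 3743 CPM in the controls and 742, 511 and 457 CPM at day 7 (−2.56 ± 0.24, adjusted p = 9.61e-05). Abca8a, a lipid transporter, measured 129, 131 and 147 CPM in the controls and 39.9, 8.62 and 8.72 CPM at day 7 (−2.83 ± 0.52, adjusted p = 0.00255). These 2 genes fell in every day-7 library, whereas Dpt (−0.09 ± 0.27, adjusted p = 0.842) and Cd34 (−0.03 ± 0.26, adjusted p = 0.946) did not pass. The rises of C3, Pi16 and Mfap5 were all lost without control replicate 1, which left 2 called, and 3 were called without control replicate 2 or control replicate 3.

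Of 12 TGF-beta and activin genes 8 were called higher and none lower (median 1.41), and 7 of the 8 encode ligand subunits or Ltbp proteins. TGF-beta is secreted in a latent complex bound to the matrix through some Ltbp proteins, such as Ltbp1, and activins are dimers of the inhibin beta subunits. Tgfb3 measured 51.8, 32.7 and 54.0 CPM in the controls and 180.2, 269.6 and 350.2 CPM at day 7 (2.53 ± 0.41, adjusted p = 0.00136). Tgfb1 rose by 1.67 and Tgfb2 by 1.28, so all 3 ligand genes were called. Ltbp2 measured 1.32, 1.86 and 1.29 CPM in the controls and 144, 145 and 224 CPM at day 7 (6.84 ± 0.92, adjusted p = 0.000472). Inhba, the subunit of activin A, measured 1.88, 4.08 and 3.89 CPM in the controls and 18.4, 43.5 and 66.4 CPM at day 7 (3.70 ± 0.52, adjusted p = 0.000574), and Inhbb rose by 1.66 and Ltbp1 by 1.54. The eighth call was the receptor Acvr1 (0.50 ± 0.12, adjusted p = 0.0133), and it was lost without day-7 replicate 3 or control replicate 2 (adjusted p between 0.0549 and 0.0573, against 0.00209 to 0.0573 across every alternative). The receptors Tgfbr1 (0.22 ± 0.13, adjusted p = 0.213) and Tgfbr2 (0.34 ± 0.17, adjusted p = 0.165) and the feedback inhibitor Smad7 (0.05 ± 0.21, adjusted p = 0.886) did not pass. Of BMP ligands and antagonists 3 of 12 were called, all higher: the antagonist Grem1, Bmp3 (1.40 ± 0.16) and the activin antagonist Fst, whose call was lost without day-7 replicate 2 or 3 or control replicate 1, 2 or 3 (adjusted p between 0.0569 and 0.103, against 0.00200 to 0.103 across every alternative). Bmp4 measured 30.4, 29.1 and 31.3 CPM in the controls and 32.8, 35.1 and 36.0 CPM at day 7 and did not pass (0.20 ± 0.12, adjusted p = 0.236).

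The insulin-like growth factor axis split, with 6 of 11 genes called higher and 3 lower. Igf1, a growth factor of muscle and stroma, measured 114, 177 and 149 CPM in the controls and 468, 1217 and 896 CPM at day 7 (2.55 ± 0.39, adjusted p = 0.000923). Igfbp3, the main carrier of the factor in blood, measured 858, 656 and 670.3 CPM in the controls and 57.4, 60.5 and 60.5 CPM at day 7 (−3.61 ± 0.29, adjusted p = 4.90e-05). H19, the imprinted non-coding RNA beside Igf2, measured 1.46, 5.03 and 3.21 CPM in the controls and 79.0, 70.7 and 88.4 CPM at day 7 (4.62 ± 0.48, adjusted p = 0.000142). Igf1 and H19 were thus higher and Igfbp3 lower in every day-7 library. Of the other binding proteins, Igfbp4, Igfbp2 and Igfbp7 rose by 0.70 to 2.57 and Igfbp5 fell by 1.09. Igf2 itself did not pass (0.84 ± 0.29, adjusted p = 0.0542), and the 2 receptors, Igf1r (−0.45 ± 0.15) and Igf2r (0.38 ± 0.11), each lost their calls when each of the 6 libraries was left out in turn (adjusted p 0.00712 to 0.128 and 0.00575 to 0.108 across every alternative).

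Wnt genes had 3 of 12 called higher and 2 lower, counts near the 15.6% and 10.5% of all genes. The 3 called higher encode secreted inhibitors. Sfrp4 measured 5.43, 2.70 and 2.46 CPM in the controls and 87.8, 184 and 78.2 CPM at day 7 (5.04 ± 0.73, adjusted p = 0.000675), Sfrp1 rose by 3.10 and Wif1 by 1.91. Wnt5a (when each of the 6 libraries was left out in turn) and the target Axin2 (without day-7 replicate 2 or 3 or control replicate 2 or 3) lost their calls, so that 3 of the list were called without day-7 replicate 2 or 3 or control replicate 2 or 3, and 4 without the others. Of 12 Hedgehog genes, Ihh, a ligand, measured 21.9, 23.7 and 17.6 CPM in the controls and 3.37, 1.95 and 2.098 CPM at day 7 (−3.09 ± 0.47, adjusted p = 0.000904). Boc, a co-receptor, rose by 1.29, Dhh was lost without day-7 replicate 2 or control replicate 1 or 3 (adjusted p between 0.0654 and 0.0982, against 0.00496 to 0.0982 across every alternative), and the target genes Ptch1 (0.16 ± 0.21, adjusted p = 0.622) and Gli1 (−0.04 ± 0.26, adjusted p = 0.931) did not pass. Ihh was the only ligand of the list that fell, since Shh did not pass (−0.52 ± 0.24, adjusted p = 0.128) and shares its position with a more abundant gene.

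Of 12 genes of the FGF, HGF and PDGF families, 7 were called higher and 1 lower. Pdgfrb, the receptor of pericytes and fibroblasts, measured 55.7, 59.1 and 59.6 CPM in the controls and 176, 151 and 154 CPM at day 7 (1.46 ± 0.22, adjusted p = 0.000898). Its ligand Pdgfb rose by 1.57, and Hgf, a growth factor for epithelia, by 0.87. The other calls were Fgf7, Fgf9, Met and Fgfr1 higher and Fgf10 lower, and each was lost without at least 1 library: 4 were called without day-7 replicate 2 or control replicate 1, and 5 without day-7 replicate 3 or control replicate 2. Of 10 EGF family genes, Nrg1, neuregulin, fell from 29.2 ± 7.70 to 12.8 ± 3.25 CPM (−1.19 ± 0.27, adjusted p = 0.00777, mean ± SD, n = 3). Tgfa was the only other call, and it was lost without day-7 replicate 1 or 2 or control replicate 1, 2 or 3 (adjusted p between 0.0688 and 0.103, against 0.0208 to 0.103 across every alternative). Hbegf, known to respond to stretch in bladder muscle, measured 2.68, 2.37 and 2.79 CPM in the controls and 4.25, 7.37 and 13.7 CPM at day 7 (1.69 ± 0.60, adjusted p = 0.0578) and did not pass.

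The IL-6 family had 5 of 12 called higher and 3 lower. Osmr, the oncostatin M receptor, measured 46.5, 50.8 and 48.1 CPM in the controls and 103, 256 and 252 CPM at day 7 (2.07 ± 0.49, adjusted p = 0.00952). Cntfr, the receptor of ciliary neurotrophic factor, measured 150.5, 163 and 161 CPM in the controls and 48.1, 19.3 and 21.2 CPM at day 7 (−2.42 ± 0.33, adjusted p = 0.000486). The shared receptor Il6st rose by 0.54 and the ligand Ctf1 fell by 0.85. Il11 measured 0.417, 0.291 and 0.393 CPM in the controls and 0.806, 1.15 and 4.96 CPM at day 7, with the highest value in day-7 replicate 3. Il11, Lif, Il6 and Lifr lost their calls without day-7 replicate 3, which left 4 of the list called. The number was also 4 without control replicate 3 and 5 without control replicate 1 or by limma voom. Il6 is uncertain because of an overlapping gene.

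Immediate early genes, transcribed within minutes of a stimulus, had 4 of 12 called higher, and all 12 had their highest day-7 level in replicate 3. Egr2 measured 1.81, 3.24 and 1.43 CPM in the controls and 13.0, 21.5 and 48.1 CPM at day 7 (3.67 ± 0.63, adjusted p = 0.00178). Dusp1, a phosphatase of the MAP kinases, measured 89.7, 53.0 and 74.1 CPM in the controls and 127, 163 and 252 CPM at day 7 (1.32 ± 0.30, adjusted p = 0.00843). Egr1 measured 76.6, 45.5 and 64.1 CPM in the controls and 69.9, 89.6 and 314 CPM at day 7 (1.35 ± 0.61, adjusted p = 0.129). Egr2 and Dusp1 passed and Egr1 did not. Fosl1 and Egr3 were lost without control replicate 1 or control replicate 3, which left 2 called, as did limma voom.

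Smooth muscle genes changed in opposite directions within 1 list: of 12 contractile genes 4 were called higher and 3 lower (median 0.10). Actg2, the actin of visceral smooth muscle, measured 3296, 3496 and 3786 CPM in the controls and 12669, 7343 and 8289 CPM at day 7 (1.42 ± 0.32, adjusted p = 0.00746). Mylk, the kinase that starts contraction, measured 4018, 4353 and 3850.2 CPM in the controls and 2601, 1518 and 1491 CPM at day 7 (−1.12 ± 0.25, adjusted p = 0.00685). Actg2 was higher and Mylk lower in every day-7 library. The other calls were lost without 1 or more libraries: Cnn1 without control replicate 2, Acta2 without day-7 replicate 1 or 3 or control replicate 1 or 2, Smtn and Lmod1 without day-7 replicate 2 or 3 or control replicate 1, 2 or 3, and Cald1 when each of the 6 libraries was left out in turn. The list then had 2 calls without control replicate 2, 3 without day-7 replicate 3 or control replicate 1, and 4 without day-7 replicate 2 or control replicate 3. All 12 genes had their highest day-7 level in replicate 1, and the summed level of the list was 28645 to 47222 CPM at day 7 and 31241 to 33473 CPM in the controls.

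Of 12 genes of the cytoskeleton and non-muscle myosin 5 were called higher and 1 lower (median 0.51). Vim, vimentin, measured 495, 338 and 408 CPM in the controls and 1360.5, 1453 and 1498 CPM at day 7 (1.80 ± 0.24, adjusted p = 0.000428). Des, desmin, the intermediate filament of muscle, measured 2431, 2281 and 2116 CPM in the controls and 5625, 4006 and 5091 CPM at day 7 (1.11 ± 0.25, adjusted p = 0.00807). Myh10, a non-muscle myosin, measured 103, 104 and 125 CPM in the controls and 248, 266 and 361 CPM at day 7 (1.40 ± 0.26, adjusted p = 0.00255). Tpm4 and Actn1 rose by 1.53 to 1.84, and Synm, the gene called lower, was lost without day-7 replicate 2 or 3 or control replicate 1, 2 or 3 (adjusted p between 0.0699 and 0.122, against 0.00411 to 0.122 across every alternative). Actb (0.25 ± 0.13, adjusted p = 0.178) and Flna (−0.15 ± 0.22, adjusted p = 0.665) did not pass.

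Channels and calcium pumps of the detrusor were called only downward, 6 of 12 (median −0.57), against 10.5% of all genes. Pln, phospholamban, the inhibitor of the calcium pump, measured 141, 202 and 184 CPM in the controls and 76.0, 33.5 and 27.4 CPM at day 7 (−1.94 ± 0.34, adjusted p = 0.00195). Kcnma1, the pore of the BK potassium channel, measured 141, 169 and 131 CPM in the controls and 83.2, 68.5 and 51.8 CPM at day 7 (−1.12 ± 0.19, adjusted p = 0.00152). Itpr1, a calcium release channel, measured 357, 356 and 371 CPM in the controls and 247, 149 and 169 CPM at day 7 (−0.94 ± 0.17, adjusted p = 0.00245), and Abcc9 fell by 1.05. These 4 genes were lower in each day-7 library than in any control. Ano1 and the calcium pump Atp2a2 lost their calls, Ano1 without day-7 replicate 1 or 3 or control replicate 1, 2 or 3 and Atp2a2 when each of the 6 libraries was left out in turn, and the voltage-gated channel Cacna1c did not pass (−0.15 ± 0.26, adjusted p = 0.704). In 10 of the 12 genes the highest day-7 level was that of replicate 1.

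The list of receptors for nerve transmitters, endothelin and oxytocin changed in both directions, 4 of 12 higher and 3 lower. Among the receptors for nerve transmitters, Adra1d alone was called higher, and all 3 lower calls were of this kind. Tacr2, the neurokinin receptor that contracts the detrusor, measured 103, 114 and 117 CPM in the controls and 26.1, 12.4 and 12.1 CPM at day 7 (−2.72 ± 0.33, adjusted p = 0.000297). Adrb3, the adrenergic receptor that relaxes it, measured 6.19, 6.77 and 5.57 CPM in the controls and 2.38, 0.834 and 0.543 CPM at day 7 (−2.30 ± 0.46, adjusted p = 0.00434). Adra1d, another adrenergic receptor, measured 2.68, 2.08 and 1.14 CPM in the controls and 16.7, 14.0 and 19.4 CPM at day 7 (3.08 ± 0.46, adjusted p = 0.000808). Tacr2 and Adrb3 were thus lower and Adra1d higher in all 3 day-7 libraries. The endothelin receptors rose, Ednra by 2.40 and Ednrb by 2.08, with Ednrb uncertain because of an overlapping gene. The muscarinic receptors that mediate normal voiding did not pass (Chrm2 0.30 ± 0.25, adjusted p = 0.403 and Chrm3 −0.57 ± 0.39, adjusted p = 0.302), nor did the purine receptor P2rx1 (−0.70 ± 0.40, adjusted p = 0.224). Oxtr, the oxytocin receptor, held 8 counts in the controls and 504 at day 7, a ratio of 63.4 (95% interval 31.9 to 148), and its call was lost without day-7 replicate 1 or control replicate 1, 2 or 3 (adjusted p between 0.0655 and 0.134, against 0.01004 to 0.154 across every alternative). Adra1a was lost without day-7 replicate 2 or 3 or control replicate 1 or 3 (adjusted p between 0.0746 and 0.104, against 0.00643 to 0.104 across every alternative).

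Superficial urothelial genes were called only downward, 5 of 12 against 10.5% of all genes, at a median of −0.61. Upk1a measured 1735, 1947 and 1631 CPM in the controls and 1164, 922 and 1156 CPM at day 7 (−0.71 ± 0.14, adjusted p = 0.00411). Upk3a measured 1246, 1360.2 and 1181 CPM in the controls and 685, 659 and 902 CPM at day 7 (−0.75 ± 0.15, adjusted p = 0.00432). Krt20, the keratin of the most mature umbrella cells, measured 78.9, 63.2 and 60.1 CPM in the controls and 18.2, 24.0 and 38.6 CPM at day 7 (−1.32 ± 0.29, adjusted p = 0.00698). Upk1b fell by 0.66. Psca, the fifth call, was lost without day-7 replicate 1 or 2 or control replicate 1 or 2 (adjusted p between 0.0612 and 0.0843, against 0.00381 to 0.0843 across every alternative), and 8 of the 12 were called by DESeq2. Basal keratins did not pass (Krt5 0.03 ± 0.48, adjusted p = 0.975 and Krt15 0.04 ± 0.29, adjusted p = 0.943), and Krt14 measured 12.8, 15.6 and 13.2 CPM in the controls and 10.1, 82.5 and 57.6 CPM at day 7 (1.85 ± 0.68, adjusted p = 0.0649).

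Transcription factors of the urothelium had 3 of 12 called, all lower. Pparg, which drives differentiation of urothelium and of fat cells, measured 203, 195 and 185 CPM in the controls and 105, 83.3 and 112 CPM at day 7 (−0.96 ± 0.12, adjusted p = 0.000385). Tp63, the factor of basal and intermediate cells, counted with the basal list, measured 194, 190.4 and 173 CPM in the controls and 78.8, 98.6 and 94.9 CPM at day 7 (−1.03 ± 0.14, adjusted p = 0.000472). Ehf fell by 0.56, and Grhl3 lost its call without day-7 replicate 1 or 2 or control replicate 1 or 2. Of 12 tight junction genes, only Cgn was called, and not without control replicate 1 (adjusted p 0.00166 to 0.0508 across every alternative). Cldn4 (−0.26 ± 0.37, adjusted p = 0.644) and Ocln (−0.19 ± 0.23, adjusted p = 0.574) did not pass.

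The aryl hydrocarbon receptor senses foreign and dietary compounds and turns on enzymes that clear them. Of 11 tested genes of the receptor and its targets, 6 were called lower, against 10.5% of all genes, and none higher (median −0.91). Ugt1a6, a glucuronidating enzyme, measured 461, 533 and 489 CPM in the controls and 275, 251 and 265 CPM at day 7 (−0.91 ± 0.12, adjusted p = 0.000405). It overlaps Ugt1a1, a gene of larger count on the same strand, and is uncertain. Ahrr, the repressor of the receptor and its target, measured 27.2, 34.5 and 26.6 CPM in the controls and 7.59, 6.39 and 6.19 CPM at day 7 (−2.13 ± 0.32, adjusted p = 0.000895). The receptor Ahr (−0.14 ± 0.09, adjusted p = 0.264) and its partner Arnt (0.15 ± 0.09, adjusted p = 0.226) did not pass. Nfe2l2 was lost without day-7 replicate 1 or control replicate 1 or 2, and Tiparp without day-7 replicate 1 or 2 or control replicate 1 or 2. By limma voom Cyp1a1 was not called (adjusted p up to 0.0723 across every alternative). Of 10 retinoic acid genes 2 were called higher and 1 lower. The calls of Rbp4, higher, and Crabp2, lower, were lost, Rbp4 without control replicate 1 and Crabp2 without day-7 replicate 1 or 2 or control replicate 1, 2 or 3, which left 1 of the list called without control replicate 1.

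Neurotrophic factors changed one by one: 4 of 12 genes were called higher and 2 lower. Gdnf, a survival factor of sensory and motor neurons, measured 0.696, 0.328 and 0.0714 CPM in the controls and 3.99, 5.46 and 11.4 CPM at day 7 (4.23 ± 0.87, adjusted p = 0.00484). Its co-receptor Gfra1 measured 31.4, 40.4 and 30.6 CPM in the controls and 10.0, 10.5 and 9.33 CPM at day 7 (−1.78 ± 0.17, adjusted p = 8.72e-05). Ntf3, neurotrophin 3, measured 4.11, 3.53 and 3.4995 CPM in the controls and 1.17, 0.556 and 0.507 CPM at day 7 (−2.31 ± 0.51, adjusted p = 0.00675). Gdnf was thus higher while Gfra1 and Ntf3 were lower, and Bdnf rose by 5.69.

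Of 11 Schwann cell and myelin genes, 2 were called higher and 4 lower. Cdh19, a cadherin of the Schwann lineage, measured 8.63, 12.4 and 10.6 CPM in the controls and 3.08, 1.70 and 1.85 CPM at day 7 (−2.25 ± 0.27, adjusted p = 0.000292). It was lower in every day-7 library than in any control, and Mbp, a myelin protein, fell by 0.51. Gap43, a protein of growing axons, measured 1.01, 1.93 and 2.57 CPM in the controls and 3.08, 7.64 and 5.07 CPM at day 7 (1.52 ± 0.38, adjusted p = 0.0124) and was lost without day-7 replicate 2 (adjusted p 0.0651, against 0.000823 to 0.0651 across every alternative). Sox10 was lost without day-7 replicate 2 or 3 or control replicate 1, 2 or 3 (adjusted p between 0.0713 and 0.114, against 0.00382 to 0.114 across every alternative). The neuronal tubulin Tubb3 measured 0.313, 0.692 and 0.750 CPM in the controls and 4.95, 22.3 and 25.4 CPM at day 7 (4.90 ± 0.66, adjusted p = 0.000486), and Uchl1, a neuronal hydrolase, 728, 705 and 626 CPM in the controls and 405, 397 and 479 CPM at day 7 (−0.68 ± 0.14, adjusted p = 0.00478).

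Macrophage markers were called higher in 11 of 12 cases with a median of 1.65, and their summed level was 536 to 670.4 CPM in the controls and 1924 to 2690.3 CPM at day 7. Lyz2, lysozyme, measured 121, 101 and 116 CPM in the controls and 583, 1021 and 1104 CPM at day 7 (3.00 ± 0.50, adjusted p = 0.00156). Cd68, a lysosomal protein, measured 23.4, 17.7 and 21.6 CPM in the controls and 85.1, 94.1 and 90.1 CPM at day 7 (2.101 ± 0.27, adjusted p = 0.000413). Mrc1, the mannose receptor of tissue-resident cells, measured 105, 97.3 and 121 CPM in the controls and 274, 431 and 299 CPM at day 7 (1.63 ± 0.24, adjusted p = 0.000777). Every one of the 12 markers lay above the controls in each day-7 library, a separation seen in 45.3% of all genes. Trem2, Itgam, Tyrobp, Cd163, Laptm5, Adgre1 and Csf1r rose by 1.05 to 2.59, Cd14 was lost without day-7 replicate 3 or control replicate 1 (adjusted p between 0.0526 and 0.0530, against 0.000344 to 0.0530 across every alternative), and Gpnmb did not pass (1.26 ± 0.65, adjusted p = 0.178).

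Complement genes, many of them products of macrophages or fibroblasts, were called higher in 10 of 12 cases (median 1.80). C1qb measured 33.0, 31.4 and 41.0 CPM in the controls and 123, 144 and 144 CPM at day 7 (1.97 ± 0.28, adjusted p = 0.000613). C2 measured 18.6, 13.3 and 21.4 CPM in the controls and 132, 124 and 78.2 CPM at day 7 (2.65 ± 0.45, adjusted p = 0.00169). Cfi, the protease that inactivates C3b, measured 0.661, 1.17 and 0.964 CPM in the controls and 4.21, 13.4 and 14.1 CPM at day 7 (3.51 ± 0.54, adjusted p = 0.000985). C1qa, C1qc, C1r, C1s and C5ar1 rose by 0.92 to 1.97, and the call of C3 was lost without day-7 replicate 2 or control replicate 1, 2 or 3.

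Neutrophil genes were near the floor in the controls, at 10.8 to 13.3 CPM over all 12 members together, and reached 58.3 to 103 CPM at day 7. Of the 12 members, 9 had counts enough for the test. Csf3r, the receptor of the granulocyte growth factor, measured 0.696, 0.510 and 0.464 CPM in the controls and 7.88, 14.2 and 18.5 CPM at day 7 (4.59 ± 1.11, adjusted p = 0.0112). Ncf1, an oxidase subunit, measured 4.59, 4.70 and 4.61 CPM in the controls and 17.0, 26.4 and 20.9 CPM at day 7 (2.21 ± 0.27, adjusted p = 0.000297). S100a9 measured 0.0348, 0.328 and 0 CPM in the controls and 2.31, 5.94 and 6.69 CPM at day 7 (5.34 ± 1.93, adjusted p = 0.0617). Of the 9 genes 5 were called higher, but S100a8 and S100a9, the defining pair, did not pass. Mpo was lost without control replicate 1 or 2 (adjusted p between 0.0532 and 0.0571, against 0.000466 to 0.0571 across every alternative), and 3 were called by limma voom, which lost Csf3r (adjusted p up to 0.116 across every alternative). Of 11 chemokine genes 3 were called higher. Ccl2, which draws monocytes, measured 1.46, 1.38 and 1.39 CPM in the controls and 7.18, 15.8 and 26.3 CPM at day 7 (3.53 ± 0.81, adjusted p = 0.00834). Ccl7 and Cxcl1 were lost without control replicate 2 or control replicate 3, which left 1, and 5 were called by DESeq2.

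Mast cell genes split, with 5 of 12 called higher and 2 lower. Cma1, a chymase, measured 2.96, 3.79 and 4.46 CPM in the controls and 48.4, 26.3 and 16.6 CPM at day 7 (3.02 ± 0.36, adjusted p = 0.000246). Cpa3, carboxypeptidase A3, measured 8.35, 10.6 and 16.4 CPM in the controls and 96.6, 68.0 and 33.6 CPM at day 7 (2.49 ± 0.41, adjusted p = 0.00151). Slc18a2, the amine transporter, measured 9.11, 10.9 and 5.82 CPM in the controls and 3.44, 2.78 and 1.85 CPM at day 7 (−1.68 ± 0.36, adjusted p = 0.00616). Tpsab1 and Tpsb2, the tryptases, rose by 2.55 to 4.90, and Gata2, also active in endothelium, fell by 0.70. These proteases have near-identical relatives to which short reads can also map, so the values are uncertain. Kit was lost when each of the 6 libraries was left out in turn (adjusted p between 0.0587 and 0.157, against 0.00660 to 0.157 across every alternative). Replicate 1 had the highest day-7 level in 10 of the 12 genes and replicate 3 the lowest in 11.

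Lymphocyte genes were scarce. Of 10 T and NK cell genes tested only Lck was called (1.35 ± 0.32, adjusted p = 0.00952), while Cd3e measured 0.0348, 0.328 and 0.0357 CPM in the controls and 0.989, 0.834 and 0.796 CPM at day 7 (2.69 ± 0.95, adjusted p = 0.0564). DESeq2 called 4, limma voom 0, and edgeR 3 without day-7 replicate 3 and 2 without control replicate 2. The adjusted p of Lck reached 0.0835 across every alternative. Of 5 B and plasma cell genes, Derl3, an overlapped gene, and Cd22 were called, Cd22 was lost without day-7 replicate 1 or 2 or control replicate 1, 2 or 3 (adjusted p between 0.0570 and 0.0767, against 0.00397 to 0.0814 across every alternative), and Jchain did not pass (2.79 ± 1.67, adjusted p = 0.245). Of 12 IL-1 family genes 5 were called higher. Il18 measured 1.98, 2.26 and 3.00 CPM in the controls and 5.17, 12.4 and 8.39 CPM at day 7 (1.84 ± 0.38, adjusted p = 0.00465), and Il1r1 and Pycard rose by 0.82 to 1.01. Il1rl1 was lost without day-7 replicate 2 or 3 or control replicate 1, 2 or 3, and Nlrp3 when each of the 6 libraries was left out in turn. The list had 3 calls when any library but day-7 replicate 1 was left out.

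Interferon response genes had a median of 2.02 but only 1 of 12 was called. Rsad2 measured 1.91, 2.11 and 6.46 CPM in the controls and 11.03, 11.5 and 88.0 CPM at day 7 (3.40 ± 1.09, adjusted p = 0.0387), and was lost without day-7 replicate 3 or control replicate 1, 2 or 3 (adjusted p between 0.0555 and 0.239, against 0.00876 to 0.239 across every alternative). Mx1 measured 3.44, 6.85 and 4.57 CPM in the controls and 33.7, 14.3 and 26.7 CPM at day 7 (2.33 ± 0.85, adjusted p = 0.0626). Day-7 replicate 2 held the lowest level of 10 of the 12 genes. The number called was 3 without day-7 replicate 2, 0 without day-7 replicate 3 or any 1 control, 6 by DESeq2 and 0 by limma voom, and 8 had an unadjusted p under 0.05 in edgeR.

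Endothelial genes were called higher in 10 of 11 cases (median 1.35), with a summed level of 311 to 338 CPM in the controls and 871 to 958 CPM at day 7. Vwf, von Willebrand factor, measured 19.6, 20.8 and 24.9 CPM in the controls and 152, 119 and 147 CPM at day 7 (2.68 ± 0.40, adjusted p = 0.000829). Cdh5, the cadherin of endothelial junctions, measured 42.1, 37.7 and 40.0 CPM in the controls and 154, 143 and 158 CPM at day 7 (1.93 ± 0.22, adjusted p = 0.000213). Kdr, the main receptor of VEGF-A, measured 29.4, 27.2 and 27.1 CPM in the controls and 67.3, 71.4 and 63.6 CPM at day 7 (1.27 ± 0.20, adjusted p = 0.00106). All 11 genes separated the groups. Erg, Tie1, Pecam1, Egfl7 and Tek rose by 1.10 to 2.05, while the call of Flt1 was lost without day-7 replicate 2 or 3 or control replicate 2 and that of Esam without day-7 replicate 3 or control replicate 2 or 3.

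Of 12 angiogenic and lymphatic genes 8 were called higher and 2 lower. Esm1, a marker of endothelial tip cells, measured 2.57, 1.89 and 2.29 CPM in the controls and 6.12, 11.3 and 10.6 CPM at day 7 (2.05 ± 0.35, adjusted p = 0.00167). Lyve1, of lymphatic vessels and some macrophages, measured 17.6, 32.9 and 32.3 CPM in the controls and 113, 127 and 121 CPM at day 7 (2.12 ± 0.43, adjusted p = 0.00432). Prox1, the factor that sets lymphatic identity, measured 5.15, 5.68 and 9.32 CPM in the controls and 38.8, 18.0 and 17.5 CPM at day 7 (1.88 ± 0.39, adjusted p = 0.00474). Aplnr, Plvap, Dll4, Vegfc and Figf, the gene of VEGF-D, rose by 1.03 to 2.53. Vegfa measured 87.3, 83.3 and 79.0 CPM in the controls and 61.0, 53.0 and 65.1 CPM at day 7 (−0.48 ± 0.13, adjusted p = 0.0165) and lost its call without day-7 replicate 2 or control replicate 1, and Angpt1 lost its call without day-7 replicate 2 or 3.

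Prostaglandin and lipoxygenase genes had 5 of 11 called higher and 2 lower. Ptgs2, the inducible cyclooxygenase, measured 18.0, 13.4 and 18.0 CPM in the controls and 19.5, 65.0 and 155 CPM at day 7 (2.28 ± 0.53, adjusted p = 0.00940). Ptgis, prostacyclin synthase, measured 28.9, 26.2 and 32.1 CPM in the controls and 105, 106 and 123 CPM at day 7 (1.94 ± 0.26, adjusted p = 0.000472). Alox15, a lipoxygenase, measured 8.80, 10.6 and 14.0 CPM in the controls and 8.83, 105 and 1001 CPM at day 7 (5.06 ± 1.23, adjusted p = 0.0114). Ptgs2 and Alox15 were each highest in day-7 replicate 3, and Alox15 was lost without day-7 replicate 3 or control replicate 1 (adjusted p between 0.0517 and 0.0550, against 8.57e-05 to 0.152 across every alternative). Alox5ap rose by 1.19, and Alox5 and Hpgd were lost when each of the 6 libraries was left out in turn, so that the list had 4 calls without day-7 replicate 3 or control replicate 1.

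Of 12 glycolysis and hypoxia genes 4 were called higher and 1, Vegfa, lower, against 15.6% and 10.5% of all genes. Car9, a carbonic anhydrase known as a hypoxia marker, measured 1.18, 0.546 and 1.39 CPM in the controls and 8.28, 15.01 and 24.1 CPM at day 7 (3.92 ± 0.79, adjusted p = 0.00426). Ldha, Pgk1 and Eno1 rose by 0.83 to 0.98, while Slc2a1 (0.52 ± 0.19, adjusted p = 0.0638) and Hk2 (0.03 ± 0.20, adjusted p = 0.931) did not pass. Of 12 nuclear respiratory chain genes 3 were called lower, of which Cox6c fell by 0.67, and Sdha and Ppargc1a were lost, Sdha without control replicate 1 and Ppargc1a without day-7 replicate 2 or 3 or control replicate 1, 2 or 3, leaving 1 without control replicate 1. Among the genes of the mitochondrial genome, ND1 measured 7945, 9030.3 and 8327 CPM in the controls and 5443, 5475 and 4844 CPM at day 7 (−0.68 ± 0.14, adjusted p = 0.00448) and ND2 6017, 7258 and 6694 CPM in the controls and 3801, 4034 and 3366 CPM at day 7 (−0.83 ± 0.15, adjusted p = 0.00218). ATP6 was called as well (−0.38 ± 0.12) and was lost when each of the 6 libraries was left out in turn (adjusted p between 0.0601 and 0.123, against 0.000785 to 0.123 across every alternative). None of 12 sterol synthesis genes was called by edgeR, DESeq2 or limma voom, and 0 had an unadjusted p under 0.05 in edgeR. Their median was 0.35, and each of the 12 was highest in day-7 replicate 3 and lowest in replicate 1.

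Clock genes had 6 of 12 called lower, against 10.5% of all genes, and none higher (median −0.51). Nr1d1, a repressor in the clock loop, measured 178, 101 and 179.7 CPM in the controls and 62.7, 36.6 and 33.6 CPM at day 7 (−1.79 ± 0.30, adjusted p = 0.00173). Dbp, an output factor of the clock, measured 51.6, 34.3 and 77.0 CPM in the controls and 30.1, 21.0 and 15.2 CPM at day 7 (−1.30 ± 0.29, adjusted p = 0.00734). Nr1d2 fell by 0.76, and Arntl (0.04 ± 0.23, adjusted p = 0.931) and Per1 (0.10 ± 0.31, adjusted p = 0.847) did not pass. Cry2, Npas2 and Clock lost their calls without day-7 replicate 2, which left 3 called. The labels give no hour of collection, and its part in these values was not tested.

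Genes of fat cells, skeletal muscle, mesothelium and red cells were followed as markers of tissue next to the bladder or within its vessels. Of 11 fat cell genes 7 were called higher and 1 lower, but the summed level of the list was 526 to 579.7 CPM in the controls and 425 to 731 CPM at day 7. Adipoq, adiponectin, measured 0.0696, 0.0364 and 0.357 CPM in the controls and 43.9, 7.85 and 9.19 CPM at day 7 (7.00 ± 1.49, adjusted p = 0.00565). Plin1, which coats fat droplets, measured 0.313, 0.219 and 0.107 CPM in the controls and 23.5, 2.85 and 4.52 CPM at day 7 (5.56 ± 1.32, adjusted p = 0.0101). By limma voom neither was called (adjusted p up to 0.1003 and 0.0748 across every alternative). Retn and Cidec held 3 and 5 counts in the controls, with ratios of 61.7 (95% interval 20.8 to 302) and 86.7 (95% interval 36.9 to 268). Cfd and Lipe rose by 1.03 to 2.28, Lpl did not pass (0.15 ± 0.32, adjusted p = 0.764), Lep was lost without day-7 replicate 1 or control replicate 1 or 2, and Fabp4, also a gene of endothelium, without day-7 replicate 1 or 2 or control replicate 1, 2 or 3.

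Of 8 skeletal muscle genes tested 4 were called higher and 1 lower. The summed level of the list was 128 to 136 CPM in the controls and 956 to 1670.2 CPM at day 7. Nearly all of the day-7 sum was Acta1, so the rise of the sum is that of 1 gene and not of the list. Acta1, skeletal actin, which growing smooth muscle can also make, measured 65.4, 72.5 and 73.3 CPM in the controls and 1611, 976 and 914 CPM at day 7 (4.05 ± 0.48, adjusted p = 0.000246). Myh2, a fast skeletal myosin, measured 1.496, 0.182 and 0.4999 CPM in the controls and 23.2, 19.98 and 18.1 CPM at day 7 (4.80 ± 0.86, adjusted p = 0.00227). Ckm, muscle creatine kinase, measured 46.0, 38.8 and 44.0 CPM in the controls and 20.4, 8.17 and 7.81 CPM at day 7 (−1.82 ± 0.35, adjusted p = 0.00312). Acta1 and Myh2 were higher and Ckm lower in every day-7 library. Myh4 and Mylpf did not reach the count needed for the test. Myh1 held 5 counts in the controls, a ratio of 49.1 (95% interval 20.8 to 153), and Myl1 was lost when each of the 6 libraries was left out in turn (adjusted p between 0.0598 and 0.0860, against 0.0198 to 0.0860 across every alternative).

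Mesothelial genes, of the serosa, had 0 of 7 called by edgeR, with 1 at an unadjusted p under 0.05, 1 by DESeq2 and 1 by limma voom. Their summed level was 586 to 720.0 CPM in the controls and 412 to 1197 CPM at day 7. Msln measured 147, 158 and 119.6 CPM in the controls and 120.0, 264 and 212 CPM at day 7, and all 7 were highest in day-7 replicate 2. Red-cell genes had 6 of 9 called higher, but 0 were called without day-7 replicate 3 or control replicate 1, and 1 without control replicate 2. Their summed level was 167 to 751 CPM in the controls and 424.5 to 8627 CPM at day 7. Hba-a1 measured 12.7, 33.6 and 54.6 CPM in the controls and 85.3, 104 and 832 CPM at day 7 (3.34 ± 0.83, adjusted p = 0.0128), and its difference was 1.47 without day-7 replicate 3. Haemoglobin copies are near-identical and are uncertain. Whether blood, fat, striated muscle or serosa in a piece of tissue bears on the other values of that library was not tested.

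The 3 day-7 libraries differed among themselves in whole groups of genes. Over all 17687 genes the highest day-7 level fell to replicate 1 in 39.9%, to replicate 2 in 27.6% and to replicate 3 in 32.6%, and the highest level was a median 1.34 times the lowest. Replicate 1 was highest for 12 of 12 contractile genes, 10 of 12 genes of excitation, 9 of 11 fat cell genes and 9 of 12 interferon genes. Replicate 2 was highest for 10 of 12 mitosis genes and 7 of 7 mesothelial genes. Replicate 3 was highest for 12 of 12 licensing genes, 9 of 12 DNA synthesis genes, 12 of 12 immediate early genes, 12 of 12 sterol genes and 9 of 9 red-cell genes. The ratio of the highest to the lowest day-7 level had a median of 4.1 among immediate early genes, 22.4 among red-cell genes and 1.28 among endothelial genes. These are descriptions of 3 libraries, and members of a list are not replicates.

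**Figure D3:**
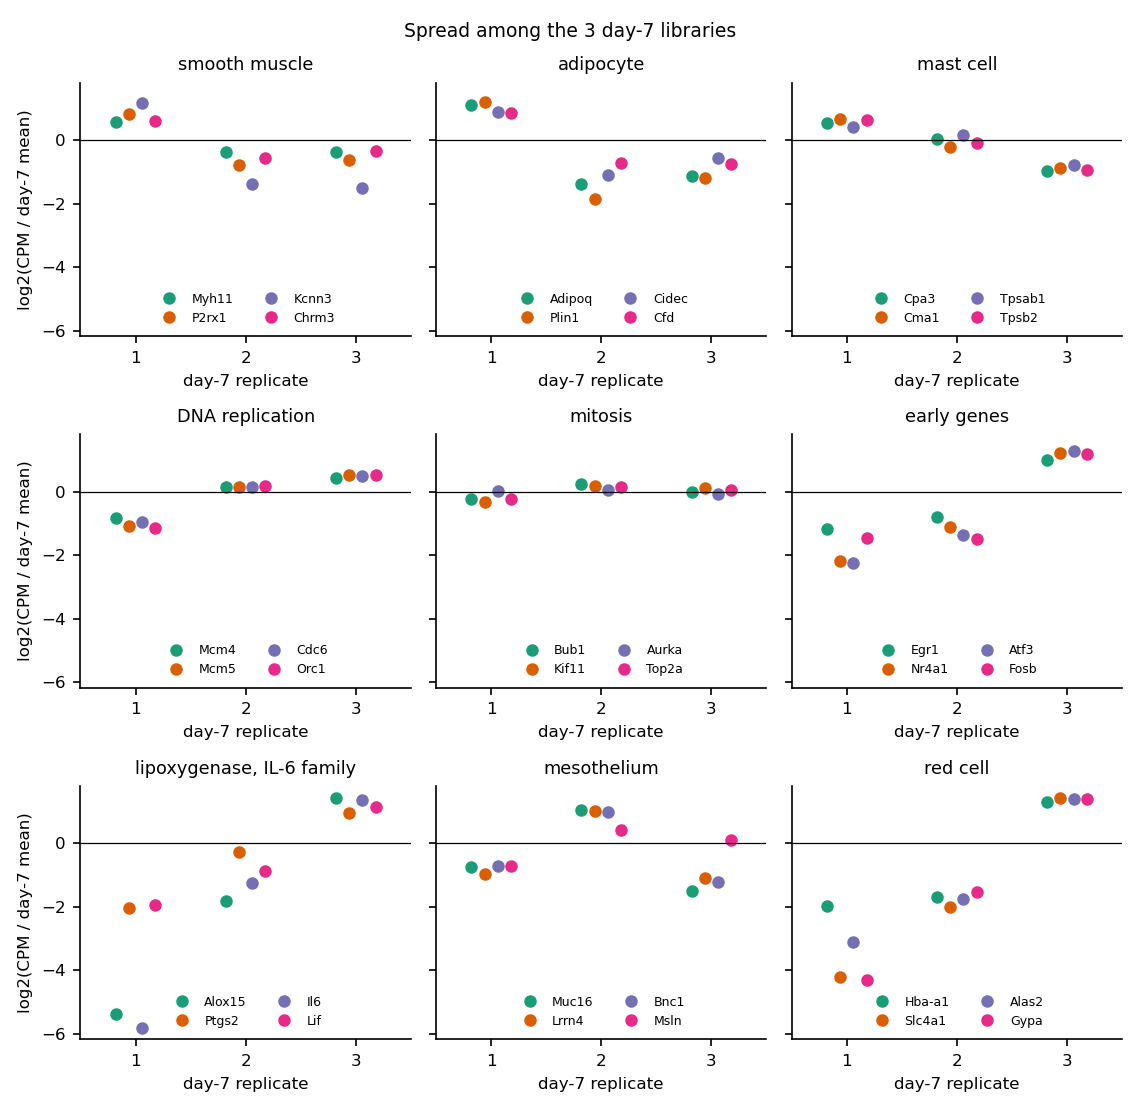
Log2 of each day-7 library's CPM over the mean of the 3 (y axis) by replicate (x axis) for 4 genes of each of 9 groups. Smooth muscle, fat cell and mast cell genes are highest in replicate 1, mesothelial and most mitosis genes in replicate 2, and replication, early and red-cell genes in replicate 3.

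Non-coding transcripts, counted in a separate table in which isoforms of a gene can share reads, leaned the other way from genes. Of 3896 tested, 710 (18.2%) were called, 265 (6.8%) higher and 445 (11.4%) lower, with a median of −0.19. The share called higher was 37.3% of calls, and it was 46.9% with a 2-fold minimum, 52.0% without day-7 replicate 2 and 53.1% without day-7 replicate 3. The number of calls was 358 without day-7 replicate 2, 384 without day-7 replicate 3, 423, 429 and 361 without control replicate 1, 2 and 3, and 351 with a mean of at least 5 CPM required. Apart from H19, the largest rises were non-coding isoforms of Ankle1 (4.43 ± 0.51), Lilrb4 (4.01 ± 0.63), Bub1b (3.98 ± 0.52) and Mastl (3.71 ± 0.35). Ankle1, Bub1b and Mastl encode proteins of chromosome handling and mitosis. Among the largest falls were isoforms of Art3 (−2.30 ± 0.49 and −2.27 ± 0.47 in 2 isoforms), Cacna1b (−2.17 ± 0.46) and Dnah9 (−2.002 ± 0.15), a motor of cilia. In the authors' deposited table of this comparison, 633 of 5825 transcripts are marked as different, 413 higher and 220 lower. None of the 633 changed less than 2-fold in that table, a minimum that the 710 calls do not have, and 523 of them were tested here. Of the 633, 415 were also called, 65.6% of the authors' list and 58.5% of the 710, all with the same sign. The lists rest on unlike thresholds, so their shares of higher calls are not compared.

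Of 51 microRNA genes tested 1 was called higher and 2 lower, and with the host gene Mir155hg 4 such loci are named. The mature sequences from RefSeq on GRCr8 are shown to identify them, with the seed, bases 2 to 8, in capitals. The libraries were made from total RNA depleted of ribosomal RNA and not by a protocol for small RNA, and the counts at these loci are not a measure of the mature forms. No seed is shared among the 6 mature forms.
rno-miR-155-5p: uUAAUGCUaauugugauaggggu
rno-miR-155-3p: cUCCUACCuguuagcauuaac
rno-miR-223-3p: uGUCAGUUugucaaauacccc
rno-miR-223-5p: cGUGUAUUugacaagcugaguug
rno-miR-205: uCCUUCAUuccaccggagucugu
rno-miR-200a-5p: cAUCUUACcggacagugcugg

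Mir155hg, transcribed in activated immune cells, measured 0.139, 0.146 and 0.0714 CPM in the controls and 0.440, 0.903 and 0.362 CPM at day 7 (2.22 ± 0.61, adjusted p = 0.0198). Mir223, of myeloid cells, measured 0.244, 0.182 and 0.0714 CPM in the controls and 0.806, 0.869 and 0.470 CPM at day 7 (2.08 ± 0.64, adjusted p = 0.0327). The 2 epithelial loci were lower, Mir205 with 3.83, 4.22 and 3.11 CPM in the controls and 2.16, 2.33 and 1.52 CPM at day 7 (−0.89 ± 0.25, adjusted p = 0.0207) and Mir200a with 1.67, 1.38 and 1.32 CPM in the controls and 0.586, 0.834 and 0.579 CPM at day 7 (−1.12 ± 0.38, adjusted p = 0.0463). None of the 4 calls held in every reduced set. Mir155hg was lost without day-7 replicate 2 or control replicate 1, 2 or 3 (adjusted p between 0.0521 and 0.0925, against 0.0112 to 0.0925 across every alternative), and Mir223 without day-7 replicate 1 or 2 or control replicate 1, 2 or 3 (adjusted p between 0.0560 and 0.116, against 0.0179 to 0.116 across every alternative). Mir205 was lost without day-7 replicate 3 or control replicate 1 or 2 (adjusted p between 0.0596 and 0.0755, against 0.00344 to 0.0755 across every alternative), and Mir200a, overlapped by a more abundant gene, when each of the 6 libraries was left out in turn (adjusted p between 0.0634 and 0.125, against 0.0299 to 0.125 across every alternative).

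Much of the day-7 pattern differed from later days. Day 7 and day 14 differed in 3457 genes (19.5%), and day 7 and day 28 in 3310 (18.7%). The first count was 1959 without day-7 replicate 2, 2160 without day-14 replicate 1 and 2195 with the model fitted to those 2 groups alone, and the second was 1954 and 2164 without day-7 replicate 2 or 3 and 2112 without day-28 replicate 3. The comparisons share the day-7 libraries, so each gene's own values are given. Of the 2757 genes higher at day 7 than in the controls, the test of day 7 against day 14 called 1618 lower at day 14 and 2 higher still, and the test against day 28 called 1236 and 93. Of the 1865 genes lower at day 7, 834 were called higher at day 14 and 3 lower still, with 439 and 40 at day 28. Both sets of genes were chosen by the same day-7 libraries, so a return toward control was favoured by the choice. The splits are therefore a description and not a test of such a return. All 12 mitosis genes were higher at day 7 than at either later day. The level of Cdk1 averaged 3.62 ± 1.55 CPM in the controls, 48.7 ± 7.01 on day 7, 4.29 ± 0.604 on day 14 and 12.4 ± 5.55 on day 28 (mean ± SD, n = 3). The log2 fold change of day 7 was 3.504, adjusted p = 0.000273 against day 14, and 1.97, adjusted p = 0.00342 against day 28.

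All 9 fibrillar collagens differed from both later days, among them Col1a1, which had missed the threshold against control. Col1a1 was at 19212 ± 3266 CPM at day 7, 4705 ± 1198 at day 14 and 4654 ± 2009 at day 28, a log2 fold change of 2.03, adjusted p = 0.00173 against day 14 and 2.05, adjusted p = 0.00191 against day 28. The control mean of Col1a1, 10267 ± 2048 CPM, stood above both later means. Part of each Col1a1 difference is thus a later level below control and not a rise at day 7. The summed level of the fibrillar list was 8369 to 12752 CPM in day-14 libraries and 6426 to 15489 CPM in day-28 libraries. Control libraries held 17617 to 23516 CPM. Of 11 endothelial genes 9 differed from day 14 and 4 from day 28. Of 12 macrophage genes 5 differed from day 14 and 2 from day 28. Lyz2 was at 903 ± 279.7 CPM at day 7, 586 ± 376 at day 14 and 711 ± 364 at day 28. Of 12 contractile genes 6 differed from day 28.

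Some immune and protease genes were low at day 7 and high later. Of 10 T and NK cell genes 7 differed from day 28. Cd3e, a chain of the T cell receptor complex, was at 0.873 ± 0.103 CPM at day 7, 1.15 ± 1.05 at day 14 and 14.0 ± 8.02 at day 28 (−3.99, adjusted p = 0.00507 for day 7 against day 28). Il1a, a cytokine of epithelia and myeloid cells, was at 0.157 ± 0.128, 5.75 ± 9.25 and 53.1 ± 42.9 CPM (−8.37, adjusted p = 0.00507 for day 7 against day 28). Mmp12, the elastase of macrophages, was at 0.331 ± 0.187, 3.33 ± 2.26 and 28.2 ± 26.4 CPM (−6.38, adjusted p = 0.00122 for day 7 against day 28). None of these 3 genes was called at day 7 against control. Tp63 and Ugt1a6, low at day 7, were at 192 ± 33.8 and 504 ± 48.4 CPM at day 14, with controls at 186 ± 11.03 and 494 ± 36.3 CPM (−1.08, adjusted p = 0.000607 and −0.93, adjusted p = 0.000538 for day 7 against day 14). Ugt1a6 is uncertain because of an overlapping gene.

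**Figure D4:**
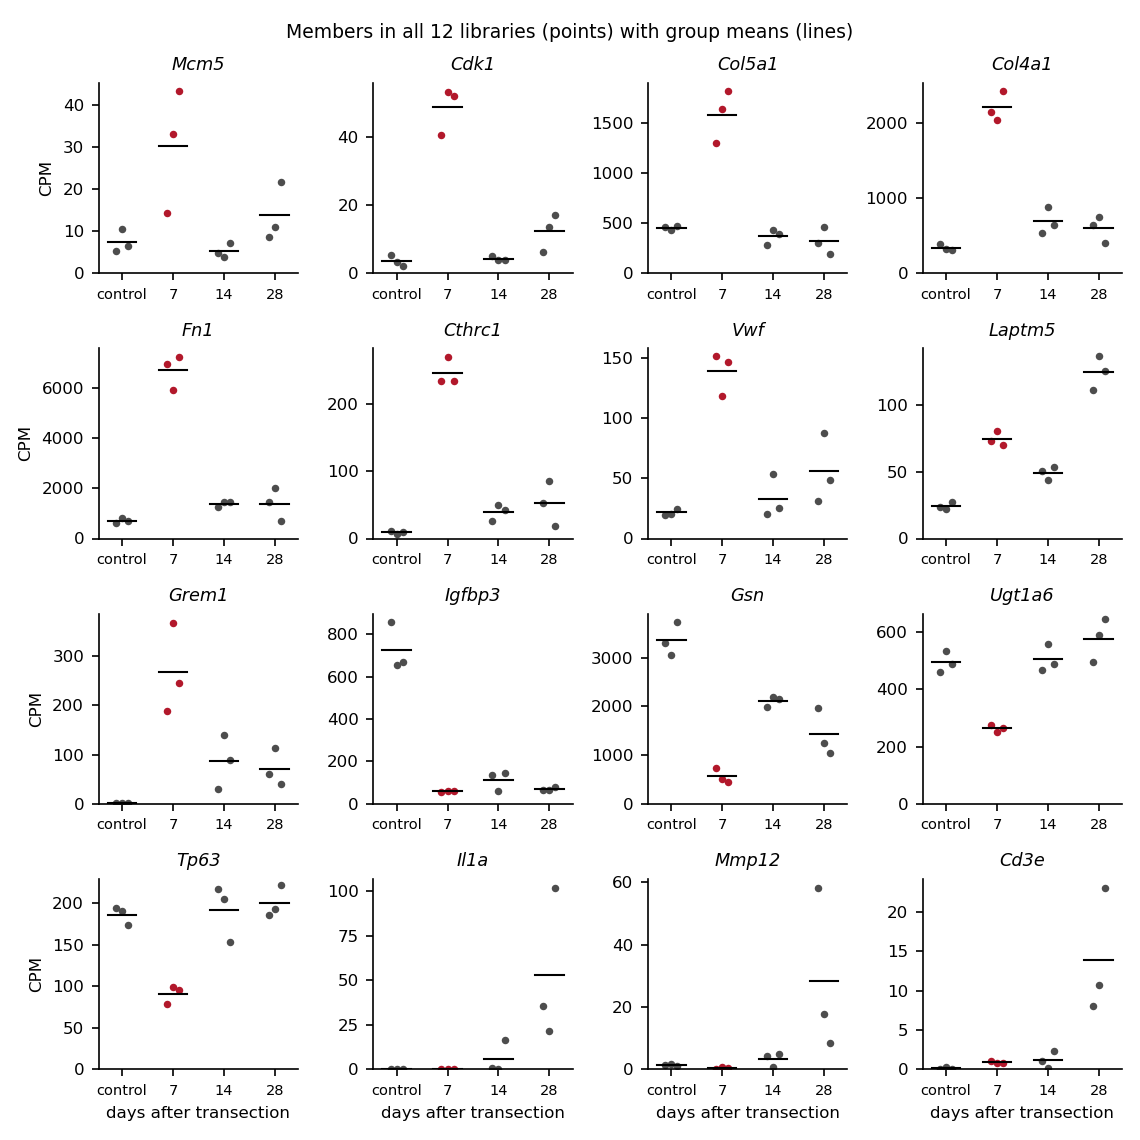
CPM (y axis, linear from 0) of 16 genes in the 3 libraries each of control and of days 7, 14 and 28 (x axis), with red points for day 7, grey points for the other groups and a line at each group mean. Cdk1, Col5a1, Fn1 and Vwf have their highest mean at day 7, Gsn, Tp63 and Ugt1a6 have their lowest mean there, and Il1a, Mmp12 and Cd3e have their highest at day 28.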

How the data were processed

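Bladder RNA was depleted of ribosomal RNA, made into TruSeq libraries and read from one end for 50 bases on a HiSeq 2500, per the labels' protocols. Tools named in the submitters' processing notes are bcl2fastq, HISAT2 2.1.0 and HTSeq 0.11.2, with the build rn6, and the role of each is not stated there. No source used here gives strand use in counting or filters on reads. The authors deposited a raw count for each gene and for each non-coding transcript, as whole numbers that were not normalized, per the file headers. TPM values, deposited beside the counts by the authors per the file headers, were not used. From the authors' deposited day-7 table of non-coding RNA, per the file headers, the log2 fold change, the q-value and the p-value were read. Gene names and rn6 coordinates are those of the deposited tables.

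Groups came from the sample titles. The filter was filterByExpr with a minimum count of 10 and a minimum total of 15. With TMM scaling, edgeR 4.0.16 in R 4.3.3 fitted 1 quasi-likelihood model to all 12 libraries, and Benjamini-Hochberg adjustment ran over all genes of a comparison. The standard error comes from dividing the size of the log2 fold change by the root of F. Non-coding transcripts were tested alike with library sizes from the gene counts. For some genes whose controls held 1 to 9 counts, a ratio of sums stands in the text with its exact 95% interval, which covers counting error only. Among the called genes Adamts16, Il6, Mpo, Lep, Fosl1 and Myl1 also held 1 to 9 counts in the controls and have no ratio in the text. On simulated counts of 17687 genes with 200 changed, the test recovered 62.2% of 2-fold and 95.1% of 4-fold changes and called 4 of 17216 unchanged genes. The changed genes were drawn only from genes with ample counts, so recovery among genes of low count was not measured. Far more genes, 4622 of 17687, were called in the data than were changed in the simulation. These rates need not hold for the comparison itself.

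Replicates differed by more than counting noise, and no pair held the same values. The median SD of log2 CPM over genes was 0.16 in the controls and 0.22 at day 7. Alternatives were DESeq2 1.42.0, limma voom 3.58.1, RLE size factors, library sizes without mitochondrial and haemoglobin genes, no filter, a mean of at least 5 CPM, only the compared groups, a 2-fold minimum, the replicate number as a block, and each library left out in turn. The comparison, the gene lists and the named genes were chosen with earlier results of these data known. The text names the 10 largest rises and falls by fold, the 8 largest by difference of mean CPM, members of the 54 lists with the smallest p and members that missed the threshold, 5 non-coding transcripts in each direction, called microRNA genes, and markers of the tissue check, and some genes that the rule names are not reported here. Overlapping genes are called uncertain where the other gene holds more counts. Tables were handled with the R package data.table (1.17.8) and pandas 2.3.3, and plots drawn with Python 3.11.15 and matplotlib 3.10.9. Promoter and mature microRNA sequences are RefSeq's on GRCr8, matched by symbol, and no coordinates were converted between builds.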

Additional observations from a re-analysis of the deposited data

Results flagged for a closer look

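Each gene named was among the 10 largest rises or falls at day 7 against control, and its log2 level at day 7 differed from that of a later day by the test of that difference. The differences below are log2 fold changes of day 7 against the later day, by edgeR's quasi-likelihood test. Since the genes were chosen for a wide change at day 7, a smaller change later was favoured by the choice.

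Tnn was higher at day 7 by 8.95 against day 14 and 9.12 against day 28, Trh by 6.54 and 7.43, and Adamts16 by 4.18 and 2.21. Spp1 was higher by 3.10 and 3.04, and Grem1 by 1.62 and 1.91. Against day 14 alone Adipoq was higher by 5.08 and Cilp by 3.34. Cilp was at 849.7 ± 468 CPM at day 7, 83.9 ± 71.1 at day 14 and 180.5 ± 180.0 at day 28 (mean ± SD, n = 3).

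Cyp1a1 was lower at day 7, by −5.15 against day 14 and −6.30 against day 28, Car14 by −2.67 and −2.92, Mamdc2 by −2.74 and −1.86, and Pla2g2a by −1.69 and −2.53. Against day 14 alone Smyd1 differed by −2.07, Aldh3a1 by −1.72, Ces1f by −1.28 and Igfbp3 by −0.95. Igfbp3 was at 59.4 ± 1.75 CPM at day 7, 114 ± 47.4 at day 14 and 69.1 ± 8.63 at day 28. No explanation of these differences was tested.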

How the results depend on the processing

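The number of genes called at day 7 against control was 2346 with a 2-fold minimum and 3061 to 4885 with 1 library left out, and between 3620 and 5516 under the other alternatives. For non-coding transcripts it was 351 with a mean of at least 5 CPM, 469 with a 2-fold minimum and 358 to 763 with 1 library left out. For day 7 against day 14 it was 2195 with only the 2 groups in the model, 1470 with a 2-fold minimum and 1959 to 3432 with 1 library left out. For day 7 against day 28 it was 1591 with a 2-fold minimum and 1954 to 3276 with 1 library left out. The cause of the drop with only 2 groups was not tested, and a 2-fold minimum or fewer samples lowers a count by construction. Genes called higher made up 59.6% of calls, and 71.3% with a 2-fold minimum. Of 9126 values of single genes under an alternative, 8405 kept their side of the threshold, 518 lost the call and 203 gained it, and 0 called values changed sign. Of 810 counts of called genes in a list, 685 stayed within 1.5 times and 125 did not.

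Among the lists, the 2-fold minimum left 4 of 10 DNA synthesis calls, 4 of 9 chaperone calls, 3 of 6 excitation calls, 1 of 5 superficial cell calls and 0 of 3 urothelial factor calls.

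The deviations of same-numbered libraries of the 2 groups correlated at 0.06, 0.02 and 0.01 across genes for replicates 1, 2 and 3. Those of differently numbered libraries correlated at −0.05 to 0.04. With 3 libraries a group, these values cannot show whether the libraries were paired. With the replicate number as a block, 4788 genes and 712 non-coding transcripts were called against control, 3662 genes against day 14 and 3463 against day 28.

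With 27044344 to 30747936 counts a library, genes under about 1 CPM rest on few reads, and a difference that missed the threshold in edgeR is not shown to be absent. DESeq2 called members that edgeR did not, among them all 9 fibrillar collagens against 6.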

Other observations

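Kinds of gene differed in the direction of their calls at day 7. Of 15285 protein-coding genes tested 2622 were called higher and 1658 lower, with a median of 0.01. Of 1425 genes annotated as lncRNA 76 were called higher and 134 lower, with a median of −0.30, and of 491 pseudogenes 15 and 24. Ribosomal, intronic and antisense RNA can share reads with coding genes where strand is not used, and that part was not tested.

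Of the markers of the tissue check that no group above holds, Snap25, a synaptic protein, measured 0.0696, 0.146 and 0.321 CPM in the controls and 1.83, 0.869 and 0.217 CPM at day 7 (2.42 ± 1.15, adjusted p = 0.142) and did not pass. Krt7, a keratin of all urothelial layers, measured 1303, 1325 and 1183 CPM in the controls and 748, 863 and 953 CPM at day 7 (−0.57 ± 0.23, adjusted p = 0.0874) and did not pass.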
